A study of Daucus carota with 18 samples.

Results

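The flavonoid pathway was followed in carrot roots through 5 genes, chosen by their gene identifiers from the 32113 gene models of the deposited tables. They were chalcone synthase (CHS, DCAR_030786), chalcone isomerase (CHI, DCAR_027694), flavanone 3-hydroxylase (F3H, DCAR_009483), a second F3H gene (DCAR_010572) and flavonoid 3′-hydroxylase (F3'H, DCAR_014032). All 5 passed the filter on low counts in each fit that gave a main value, while 1 or 2 of them did not in the alternative fits of 6 NPIP libraries. The second F3H gene lies in the region of chromosome 3 that the study mapped for pigmentation of the root inner phloem, called RIPAP, and is written RIPAP F3H below. Its position in the carrot genome assembly v2.0 is chr3:25684635-25689703, and the positions of the other 4 genes are not given in the sources used here.

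Anthocyanins are purple, red and blue pigments made by a branch of flavonoid biosynthesis. CHS joins a coumaroyl unit with malonyl units into a chalcone, CHI closes the third ring to a flavanone, and F3H adds a hydroxyl group that gives a dihydroflavonol. F3'H adds a further hydroxyl group to the B ring, which is needed for cyanidin, the core of the main carrot anthocyanins. These early enzymes are followed by dihydroflavonol reductase (DFR), leucoanthocyanidin dioxygenase (LDOX), sugar transferases and transport proteins that load the vacuole.

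Each of 9 field-grown roots gave a library from its outer phloem, which was purple (POP), and a library from its inner phloem, which was not (NPIP), so that 18 libraries formed 6 groups of 3 roots. The labels call the sets dP1 and dP2 dark purple, with high anthocyanin in the outer phloem, and the set pP pale purple, with low anthocyanin. By the study's methods and sample list both tissues were cut from each root, dP1 and pP came from 1 F2 family grown in California, and dP2 came from a sibling F2 family grown in Wisconsin, with purple xylem. Family, field and set therefore cannot be told apart for dP2. The roots were picked by colour from segregating families, so roots of a set share a colour class and not a genotype.

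Total expected counts were 6918267 to 9133313 per library, so that 1 read was worth 0.110 to 0.145 CPM, the counts scaled to a common library size. The 5 genes had whole-number counts in every library. The 3 homologs of APL, a regulator of phloem identity in Arabidopsis, summed to 0.534 to 12.4 CPM in the POP libraries and to 11.3 to 86.4 CPM in the NPIP libraries, and 3 of their values in the POP were 0. The 2 wall genes IRX15-LIKE and KNAT7 summed to 8.71 to 43.7 CPM in the POP and to 0.464 to 6.84 CPM in the NPIP. The study listed these APL and wall genes because they differed between the same tissues. Their split is thus no independent measure of tissue makeup, whose part in the results was not tested. In bulk tissue, fewer cells that express a gene and less RNA per cell cannot be told apart. Over all genes, the deviations of a POP library from its group mean correlated with those of the NPIP library of that number in dP1 and dP2 (r from 0.315 to 0.537), while in pP number 1 gave −0.233, number 3 gave −0.094 and POP 1 with NPIP 3 gave 0.578. Single-root ratios in pP rest on the numbers in the labels.

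The study designed separate primer pairs for quantitative PCR of the 2 F3H genes. They are printed because the 2 genes share a name and differ in their order over roots and sets. Whether each pair is specific to its gene was not checked here.
F3H forward: tgcaagattggcgagagatag
F3H reverse: ccatcagcttctcactgtactc
RIPAP F3H forward: tcaatgtctctggccttcaagt
RIPAP F3H reverse: cggtgaaacacactctggtattt
The annotated coding lengths were 828 bases for F3H and 1014 bases for RIPAP F3H, against 1170 for CHS, 663 for CHI and 1356 for F3'H.

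The plot of levels by library shows the 5 genes in the 6 groups. All 5 were higher in the POP than in the NPIP of the same number in 9 of 9 roots, as were 11.0% of the 20253 genes tested. The study named these genes because they differed between the same tissues, so neither this count nor the calls between tissues are independent evidence of the direction. What was not fixed by that choice is how far levels within a tissue differed between roots and sets. There CHS, CHI and F3H kept together, F3'H varied less and RIPAP F3H followed another order.

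**Figure D1:**
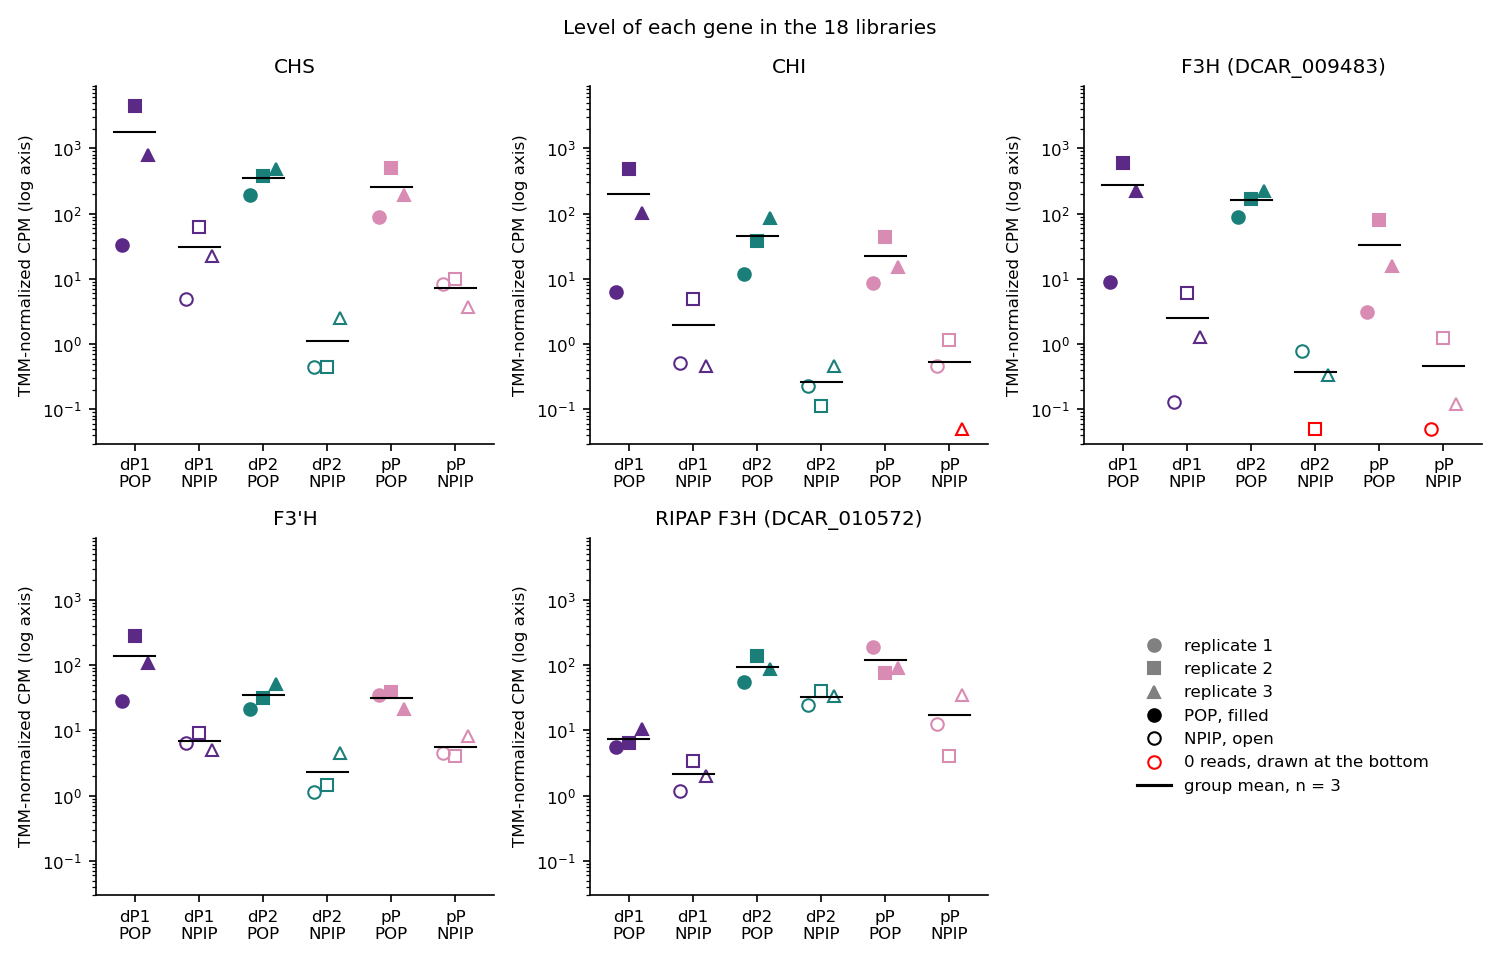
Levels of the 5 genes in TMM-normalized CPM on a log axis, by set and tissue, with 1 point per library (filled for POP, open for NPIP), replicate numbers as marker shapes and group means of n = 3 as bars. In the dP1 POP, CHS ran from 33.3 to 4444 CPM, while RIPAP F3H stayed between 5.52 and 10.5 CPM in the same 3 libraries.

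CHS, the entry enzyme of the pathway, had the widest range of the 5 genes within the dP1 POP. There its CPM were 33.3 in root 1, 4444 in root 2 and 788 in root 3, a 134-fold range. In the dP2 POP they were 195, 371 and 476, and in the pP POP 87.2, 492 and 192. Root 1 of dP1 thus lay below all 3 pale purple roots, whereas roots 2 and 3 of dP1 lay above every other root. Among the 13667 genes with a mean of at least 5 CPM and no 0 in the dP1 POP, the median range over the 3 roots was 1.49-fold, and 99.9% had a narrower range than CHS. In root 2 of dP1, CHS alone took 0.438% of all reads.

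The NPIP held little CHS. Its CPM were 4.94, 63.1 and 22.7 in dP1, 8.24, 10.1 and 3.65 in pP, and 0.448, 0.444 and 2.50 in dP2. The dP1 root with the most CHS in the POP also had the most in the NPIP, at a level above the POP of dP1 root 1, so the 2 tissues overlapped in dP1 and not in dP2 or pP. Within single roots the POP level was 6.74, 70.4 and 34.8 times the NPIP level in dP1, 10.6, 48.8 and 52.7 times in pP, and 435, 835 and 190 times in dP2. The large dP2 ratios rest on 4, 4 and 22 NPIP reads, and the exact 95% interval of that in root 2, which covers counting error alone, runs from 326 to 3067.

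In the fit across all genes, CHS rose in the POP of dP2 (log2 fold change 8.24, SE 0.81, FDR 0.00510 from edgeR) and of pP (5.15, SE 0.77, FDR 0.0156). In dP1 the fold change was 5.87 with an SE of 1.71, and the FDR of 0.0520 missed the threshold of 0.05. With root as a block the dP1 value was 4.86 (SE 0.66, FDR 0.00233), and without POP root 1 it was 6.48 (FDR 0.0311). The FDR in dP1 was 0.00133 by the likelihood ratio test, 0.00206 by DESeq2, 0.0428 with no low-count filter and 0.00780 in 1 fit of all 18 libraries. The pP call was lost without NPIP library 1 or 3 (FDR 0.0789 and 0.0507).

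CHI, which closes the flavanone ring, repeated the order of CHS at a lower level. Its CPM in the POP were 6.31, 488 and 102 in dP1, 8.68, 43.4 and 15.4 in pP, and 12.1, 38.0 and 85.1 in dP2. The order of the 3 roots was that of CHS in each of the 3 sets. In the NPIP, CHI was near the limit of detection, with 4, 41 and 4 reads in dP1, 2, 1 and 4 reads in dP2, and 4, 11 and 0 reads in pP. POP and NPIP did not overlap in any set.

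CHI rose in the POP of all 3 sets. Its log2 fold change was 7.34 in dP2 (SE 0.97, FDR 0.00900), with 6.65 in dP1 (SE 1.65, FDR 0.0311) and 5.32 for pP (SE 1.01, FDR 0.0306). The root with 0 NPIP reads, number 3 of pP, was at least 42.3-fold higher in the POP, counted against a floor of 3 reads in that library. The call in dP1 ended without POP library 3 or NPIP library 1 or 3 (FDR 0.0677 to 0.114). The call in pP ended without any 1 of POP 2, POP 3 and the 3 NPIP libraries (FDR 0.0525 to 0.130), and the call in dP2 held without each library.

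F3H, the hydroxylase that gives dihydroflavonols, had its lowest mean POP level in the pale purple set, as did CHS, CHI and F3'H. For F3H that set was not called different from dP1 or dP2. The CPM of F3H in the POP were 8.94, 586 and 222 in dP1, 3.07, 78.4 and 16.0 in pP, and 89.1, 167 and 225 in dP2. All 3 dP2 roots lay above all 3 pP roots, while dP1 root 1 again lay among the pale purple roots. In the NPIP there were 1, 51 and 11 reads in dP1, 7, 0 and 3 reads in dP2, and 0, 12 and 1 reads in pP. As for CHS and CHI, root 2 of dP1 held the highest level of both tissues.

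F3H rose in the POP of dP1 (6.76, SE 1.63, FDR 0.0282) and of dP2 (8.69, SE 0.78, FDR 0.00462). In pP the log2 fold change was 6.05 with an SE of 1.53 and an FDR of 0.0695, which did not pass, although the 2 tissues did not overlap. With root as a block the pP value was 6.26 (FDR 0.00903), and it passed by the likelihood ratio test (FDR 0.00270), by DESeq2 (FDR 0.00754) and in 1 fit of all 18 libraries (FDR 0.0319). The dP1 call ended without POP library 3 or NPIP library 1 or 3 (FDR 0.0711 to 0.112). Where the NPIP held 0 reads, the POP was at least 501-fold higher in dP2 root 2 and at least 8.82-fold higher in pP root 1.

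F3'H, which sets the hydroxylation of the B ring, had the narrowest range among roots of the 4 genes outside RIPAP. Its POP levels over the 9 roots ran from 20.9 to 279 CPM, a 13.4-fold range, against 134-fold for CHS, 77.3-fold for CHI and 191-fold for F3H. By set they were 27.7, 279 and 109 CPM in dP1, 35.0, 38.2 and 21.5 in pP, and 20.9, 31.7 and 50.6 in dP2. In the NPIP they were 6.50, 9.10 and 4.93 in dP1, 4.53, 4.10 and 8.15 in pP, and 1.12, 1.44 and 4.43 in dP2. It was thus the only 1 of these 4 genes with more than 1 CPM in every NPIP library.

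F3'H rose in the POP of dP1 (4.35, SE 0.80, FDR 0.0110), of dP2 (3.87, SE 0.62, FDR 0.0145) and of pP (2.51, SE 0.37, FDR 0.0154). Its fold in single roots was 2.64 to 30.7. The calls ended without NPIP 1 or 3 in dP1 (FDR 0.0521 and 0.0610), without POP 2, POP 3 or NPIP 2 in dP2 (FDR 0.0536 to 0.0597) and without NPIP 1 in pP (FDR 0.0742).

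RIPAP F3H differed from the other 4 genes in where it was high. Its CPM in the POP were 5.52, 6.46 and 10.5 in dP1, 188, 75.3 and 91.0 in pP, and 54.8, 139 and 85.7 in dP2. In the NPIP they were 1.17, 3.35 and 2.0 in dP1, 12.6, 4.10 and 34.2 in pP, and 24.1, 40.3 and 33.8 in dP2. Every dP2 and pP library of a tissue thus lay above every dP1 library of that tissue, and the dP2 NPIP lay above the dP1 POP. Root 2 of dP1, with the highest CHS of all, ranked 8 of 9 in the POP for RIPAP F3H.

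RIPAP F3H rose in the POP of dP1 (1.80, SE 0.47, FDR 0.0359) and of dP2 (1.5, SE 0.37, FDR 0.0474), while in pP the fold change of 2.80 (SE 0.77, FDR 0.0850) did not pass. Both calls were near the threshold. They ended in 1 fit of all 18 libraries (FDR 0.0672 in dP1 and 0.103 in dP2), without 4 of the 6 libraries in dP1 (POP 1, POP 3, NPIP 1 and NPIP 3, FDR 0.0694 to 0.119) and without any library but POP 1 in dP2 (FDR 0.0727 to 0.125). In pP the FDR was 0.00412 by the likelihood ratio test, 0.000791 by DESeq2 and 0.0109 in 1 fit of all 18 libraries, and single roots gave 14.9-fold, 18.4-fold and 2.66-fold. The root of 2.66-fold was number 3, whose NPIP library held the highest level of that group. With root as a block and the labels as deposited, both calls held, at 1.83 in dP1 (FDR 0.01635) and 1.44 in dP2 (FDR 0.0144). The pP value of 3.18 again did not pass in that fit (FDR 0.0669). With NPIP numbers 1 and 3 exchanged in the block, an alternative chosen after seeing the correlations, the pP value was 3.10 (FDR 0.00300).

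Within sets, 4 of the 5 genes were called higher in the POP of dP1, 5 of 5 in dP2 and 3 of 5 in pP, where 11.5%, 8.22% and 4.89% of all genes tested were called higher. None of the 5 was called lower, where 7.41%, 3.66% and 1.35% were. Their median log2 fold changes were 5.87, 7.34 and 5.15, against 0.00, −0.03 and 0.00 over all genes. Without overlap between tissues were 4 of 5 in dP1, 5 of 5 in dP2 and 5 of 5 in pP, where 20.9%, 19.1% and 15.2% of the genes had a POP wholly above the NPIP. The study, also with edgeR at an FDR under 0.05, called all 5 higher in the POP of each set. Its text names a generalized linear model and not the quasi-likelihood F test used here. Actin, which the study used as the reference gene, had log2 fold changes of −0.79 in dP1, 0.08 in dP2 and −0.38 in pP and was called in none (FDR 0.0744, 0.843 and 0.322).

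**Figure D2:**
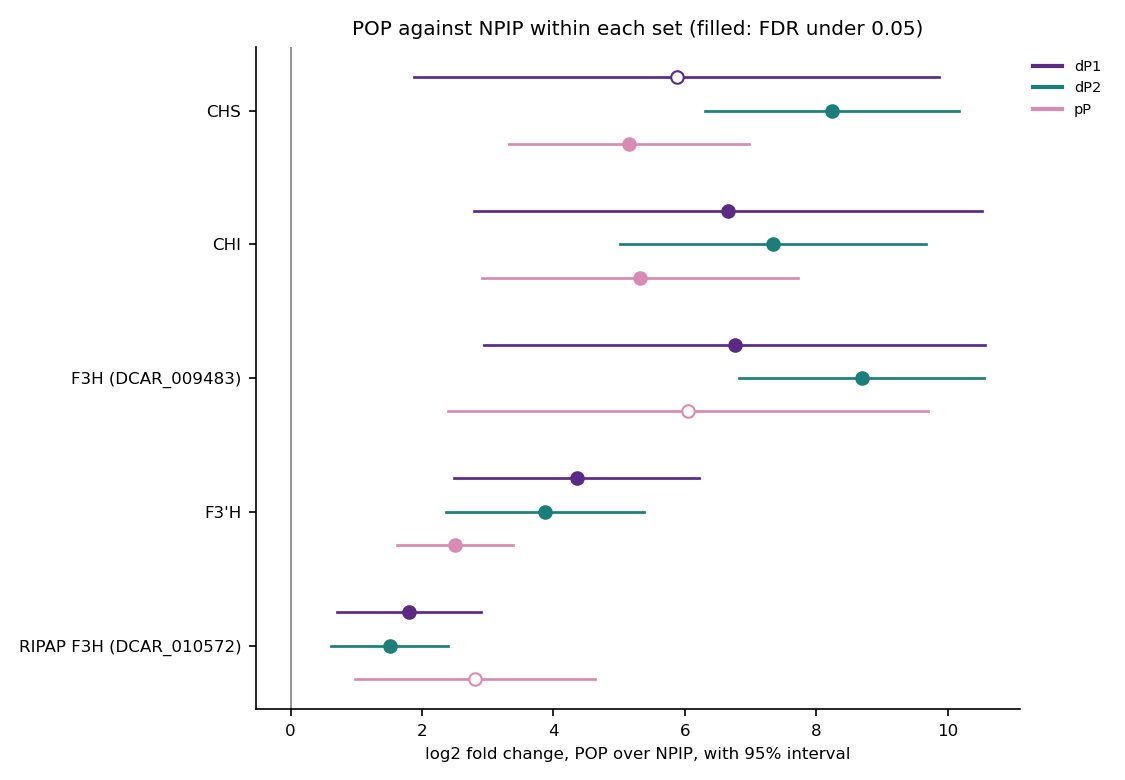
Log2 fold changes of POP over NPIP with 95% intervals for each gene in dP1, dP2 and pP (n = 3 roots per group), filled where the FDR is under 0.05. Every interval lies above 0, and the widest are those of CHS, CHI and F3H in dP1 and of F3H in pP.

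Whether the tissue difference itself changed with the set was tested by an interaction term. None of the 15 tests passed by edgeR and none had an unadjusted p under 0.05, where 0.0148%, 0.751% and 1.17% of all genes were called higher for dP1 against pP, dP2 against pP and dP2 against dP1, and 0.0%, 0.356% and 1.25% lower. For CHS the difference of log2 fold changes was 3.12 for dP2 against pP, with a 95% interval of −0.71 to 6.95. For RIPAP F3H it was −1.29 (−3.05 to 0.46) for the same sets. The intervals are wide with 3 roots a group. DESeq2 and the likelihood ratio test called none either, and the lowest FDR under any alternative was 0.0890, for CHS in dP2 against dP1 with root as a block.

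Levels were then compared between sets within a tissue, a contrast that did not enter the study's choice of these genes. In the POP of dP1 against pP, CHS had a log2 fold change of 2.77 (95% interval 0.22 to 5.32, FDR 0.297), CHI of 3.14 (0.63 to 5.65, FDR 0.220), F3H of 3.07 (0.36 to 5.78, FDR 0.274) and F3'H of 2.14 (0.76 to 3.52, FDR 0.130). None of these 4 passed, and for each of them root 1 of dP1 lay inside or below the range of the pale roots. The value of F3'H passed by the likelihood ratio test (FDR 0.0393) and by DESeq2 (FDR 0.0293). Leaving out dP1 root 1 did not bring any of the 4 past the threshold.

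RIPAP F3H was the exception, and in the opposite direction. It was lower in the dP1 POP than in the pP POP by a log2 fold change of −3.98 (SE 0.66, FDR 0.00786), which is 15.7-fold, and it was the 1 gene of the 5 that was called, where 0.657% of all genes were called lower. It was lower in the dP1 NPIP than in the pP NPIP as well (−2.95, SE 0.67, FDR 0.0252, with 2.08% of genes called higher and 2.49% lower). The POP call ended without dP1 POP 1 (−3.80, FDR 0.0578), and the NPIP call ended without dP1 NPIP 1, dP1 NPIP 3 or pP NPIP 3 (FDR 0.0900 to 0.116) and in a fit of the 6 libraries alone (FDR 0.120). The groups did not overlap in either tissue, as for 9.0% of all genes with a lower dP1 in the POP and 12.7% in the NPIP. Thus the set labelled high in anthocyanin had the lower level of this gene when the field and the family were shared.

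Between dP2 and pP, no member was called in either tissue in the joint fit of 18 libraries by the quasi-likelihood F test. None was called by DESeq2 or the likelihood ratio test either. No member had an unadjusted p under 0.05 by the F test. Of all genes, however, 17.6% were called higher and 13.5% lower in the POP, and 18.9% and 16.3% in the NPIP. In the POP the log2 fold changes were 0.43 for CHS (−1.96 to 2.83), 1.0 for CHI (−1.36 to 3.36), 2.31 for F3H (−0.32 to 4.93), 0.13 for F3'H (−1.21 to 1.46) and −0.34 for RIPAP F3H (−1.57 to 0.88). F3H was the only 1 of the 5 whose POP groups did not overlap here, where 25.7% of all genes had a dP2 wholly above pP. For F3'H and RIPAP F3H the intervals exclude differences over about 3-fold in the POP, while those of CHS, CHI and F3H do not. In the NPIP, CHS was lower in all 3 dP2 libraries than in all 3 pP libraries, with a log2 fold change of −2.69 (FDR 0.148), and 22.4% of all genes were separated that way. It passed in a fit of the 6 libraries alone (−2.70, FDR 0.0411). RIPAP F3H had a log2 fold change of 0.95 in the NPIP (FDR 0.225), which became 1.97 and passed without pP NPIP 3 (FDR 0.0215).

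Between dP2 and dP1, which share the dark purple label and the dP1 libraries of the comparison with pP, RIPAP F3H was higher in dP2 in both tissues. The log2 fold change was 3.63 in the POP (SE 0.65, FDR 0.000907) and 3.90 in the NPIP (SE 0.69, FDR 0.000498), or 12.4-fold and 14.9-fold, where 18.8% and 22.4% of all genes were called higher. These 2 calls held without each library. In the POP, F3'H was lower in dP2 (−2.01, SE 0.64, FDR 0.0258, with 14.7% of genes called lower), and this call ended without dP1 POP 2, dP2 POP 1 or dP2 POP 2 (FDR 0.0821 to 0.214) and in a fit of the 6 libraries alone. In the NPIP, CHS was lower in dP2 by −4.73 (SE 1.44, FDR 0.0167, with 18.9% of genes called lower), which ended without dP1 NPIP 2, dP2 NPIP 1 or dP2 NPIP 2 (FDR 0.0581 to 0.0648). CHS had 30 reads in the 3 dP2 NPIP libraries together and 758 in those of dP1.

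**Figure D3:**
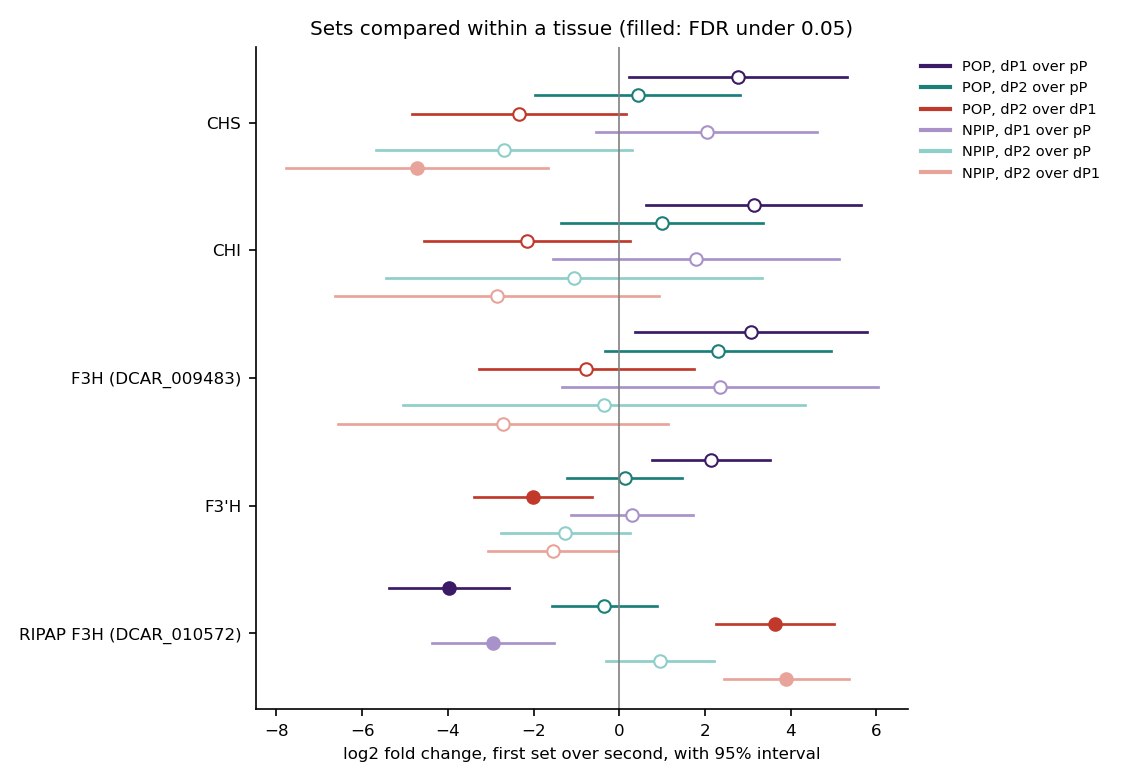
Log2 fold changes between sets within the POP or the NPIP, with 95% intervals (first set over second, n = 3 roots per group), filled where the FDR is under 0.05. RIPAP F3H, at −3.98 and −2.95 for dP1 over pP and 3.63 and 3.90 for dP2 over dP1, holds 4 of the 6 filled points.

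The levels of different genes were compared in TPM, transcript abundances that take gene length into account. CHS had the highest TPM of the 5 genes in 8 of the 9 POP libraries, between 25.7 and 3624. In the remaining library, pP root 1, RIPAP F3H stood at 168 TPM, above CHS at 66.7, F3'H at 22.8, CHI at 12.6 and F3H at 3.45. In the NPIP, RIPAP F3H had the highest TPM in all 3 dP2 libraries and in pP 1 and 3.

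The ratio of CHI to CHS was the steadiest, at 0.118 to 0.360 over the 9 POP libraries (median 0.194), while CHS itself changed 134-fold in CPM. F3H per CHS ran from 0.0517 in pP root 1 to 0.695 in dP2 root 3. In dP2 it was 0.671, 0.661 and 0.695, above every other POP library, which ranged from 0.0517 to 0.413. F3'H per CHS ran from 0.0535 to 0.710, with the highest value in dP1 root 1, where CHS was lowest.

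The 2 F3H genes changed places between sets. RIPAP F3H made up 33.0%, 0.871% and 3.63% of their summed TPM in the dP1 POP, 32.9%, 39.8% and 23.3% in the dP2 POP, and 98%, 43.4% and 81.9% in the pP POP. In the NPIP it made up 96.1% to 100% in dP2, 72.1% to 100% in pP and 30.4% to 87.6% in dP1, where both genes together came to 1.37 to 10.6 TPM. The sum of both genes in the POP was 155 to 340 TPM in dP2, 115 to 184 TPM in pP and 15.1 to 709 TPM in dP1. In the pP POP the root order of RIPAP F3H was the reverse of that of F3H. There F3H ran from 3.45 to 104 TPM and RIPAP F3H from 79.9 to 168 TPM, and their sum ranged 1.60-fold. The sum ranged 46.9-fold in the dP1 POP and 2.20-fold in the dP2 POP.

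**Figure D4:**
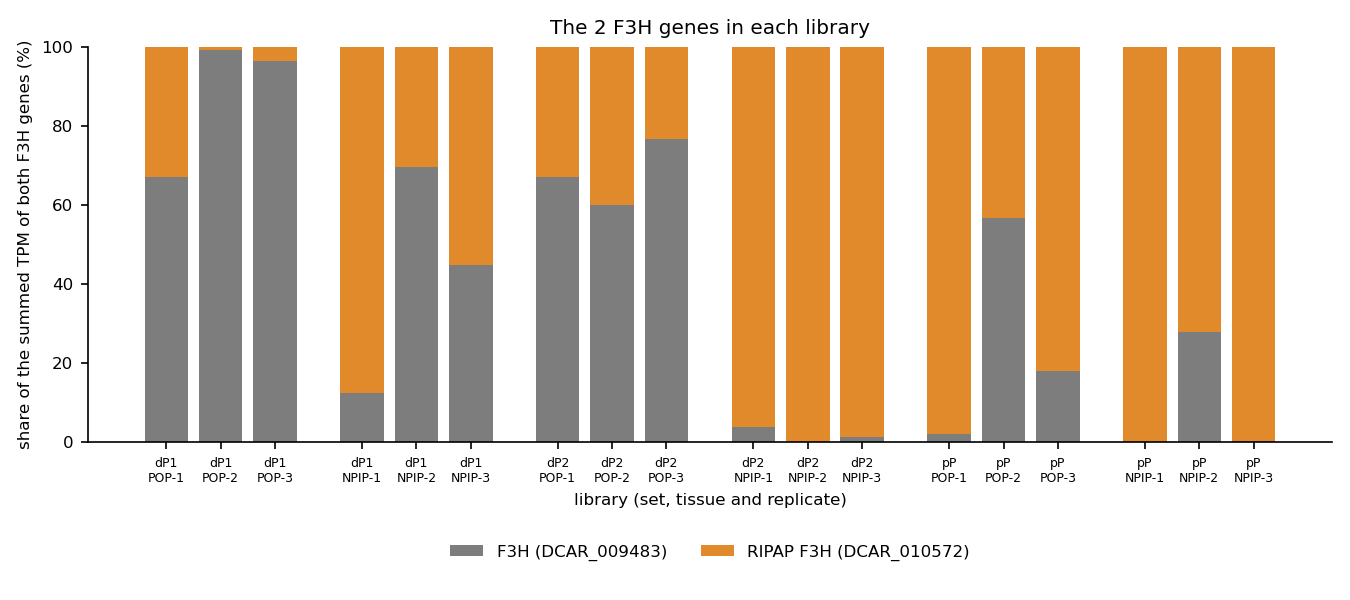
Share of F3H (grey) and RIPAP F3H (orange) in the summed TPM of both genes, in percent, for each of the 18 libraries. RIPAP F3H is 0.871% of the sum in dP1 POP 2 and 98% in pP POP 1, and in the NPIP of dP2 it is at least 96.1%.

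Across libraries, CHS, CHI and F3H varied together beyond the difference between groups. After the mean of each of the 6 groups was taken from log2(CPM + 1), the correlation over the 18 libraries was 0.94 for CHS with CHI, 0.93 for CHS with F3H and 0.93 for CHI with F3H. F3'H gave 0.78 with CHS, 0.82 with CHI and 0.68 with F3H. RIPAP F3H gave 0.01 with CHS, 0.00 with CHI, −0.08 with F3H and 0.33 with F3'H. The libraries share roots in pairs, and the 3 dP1 POP libraries carry much of this, so the values are descriptions with no test. Without those 3 libraries, CHS gave 0.82 with CHI, 0.84 with F3H and 0.35 with F3'H, and −0.11 with RIPAP F3H.

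**Figure D5:**
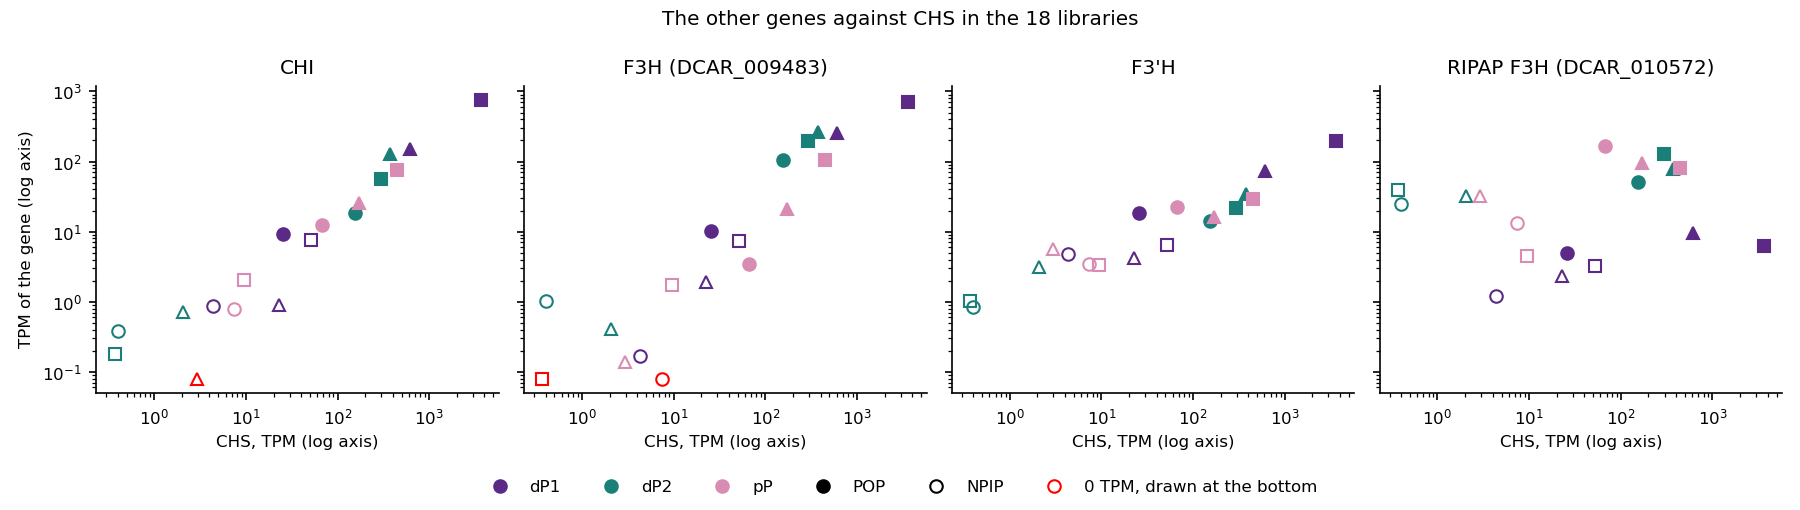
TPM of CHI, F3H, F3'H and RIPAP F3H against TPM of CHS in the 18 libraries, on log axes, coloured by set, filled for POP and open for NPIP. CHI and F3H climb with CHS from the NPIP to dP1 POP 2 at 3624 TPM of CHS, whereas RIPAP F3H stays under 10 TPM in all 6 dP1 libraries.

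Of the 14385 other genes with a mean of at least 5 CPM, the 3 most like each member were sought by the correlation of log2(CPM + 1) over the 18 libraries. For CHS they were LDOX (0.971), the glutathione transferase DcGST1 (0.959) and the galactosyltransferase DcUCGalT1 (0.947), and for CHI they were LDOX (0.980), DFR (0.979) and DcGST1 (0.975). For F3H they were DcGST1 (0.993), a gene without a name in the sources used here (DCAR_021490, 0.991) and DFR (0.978). For F3'H they were the regulator DcbHLH3 (0.963), an aldehyde dehydrogenase gene of the RIPAP region (DCAR_010446, 0.942) and DCAR_006564 (0.935). For RIPAP F3H all 3 were genes without a name here (DCAR_018409, DCAR_005789 and DCAR_026042, 0.921 to 0.912), and none belonged to the pathway or regulator lists used below.

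A further 12 structural and transport genes that the study named were read in the same way, and the study had picked them on the same libraries. All 12 were higher in the POP of each set, with median log2 fold changes of 5.78, 4.70 and 5.27 and lowest ones of 2.72, 2.51 and 3.33 in dP1, dP2 and pP. Of them, 12 were called higher here in dP1, 8 in dP2 and 8 in pP, while the study called all 12 in each set. Over all genes, 11.5%, 8.22% and 4.89% were called higher. LDOX, which makes the coloured anthocyanidin, rose by 6.96 in dP1 (FDR 0.0312), 7.04 in dP2 (FDR 0.00332) and 5.62 in pP (FDR 0.0457). DFR, the step before it, rose by 5.77 in dP1 (FDR 0.0211) and 4.80 in dP2 (FDR 0.00611), and was at 3.82 in pP with an FDR of 0.0632. Both varied widely in the dP1 POP, from 33.0 to 1976 CPM for LDOX (59.9-fold) and from 11.2 to 548 CPM for DFR (49.1-fold), less than CHS.

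The genes ahead of CHS were higher in dP2 than in the other sets. The 3 genes of phenylalanine ammonia-lyase (PAL) and the 2 of 4-coumarate CoA ligase (4CL), which supply the coumaroyl unit, were all higher in dP2 than in pP in both tissues and than in dP1 in both tissues. They were the 5 called of 12 in each POP comparison with dP2, with log2 fold changes of 2.0 to 4.36 against pP and of 2.28 to 4.64 against dP1. Over all genes, 17.6% and 18.8% were called higher in these 2 comparisons. Among the 3 roots of a group, the PAL and 4CL genes ranged 1.53-fold to 4.60-fold in the POP and 1.33-fold to 17.2-fold in the NPIP. The widest NPIP ranges were those of dP2 and, for PAL DCAR_020833, of pP. Their deviations from the group means gave correlations with CHS of −0.08 to 0.61. Those of DFR, LDOX, DcUCGalT1, DcUCGXT1, DcGST1 and the MATE transporter were 0.89 to 0.97, and that of the glycosyltransferase UDPGT (DCAR_019074) was −0.02. These correlations include the 3 dP1 POP libraries, and values without them are not given here. None of the 12 was called between dP1 and pP by the quasi-likelihood F test, in the POP (4 at an unadjusted p under 0.05) or in the NPIP (0 at an unadjusted p under 0.05).

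The study also named 8 regulators, which were read beside the genes. DcMYB7 and DcMYB6, relatives of R2R3 MYB activators of the pathway, missed the threshold by edgeR in each set, with log2 fold changes in the POP of 3.51, 2.26 and 2.32 for DcMYB7 (FDR 0.0818, 0.0738 and 0.0537) and of 3.29, 3.49 and 3.88 for DcMYB6 (FDR 0.128, 0.0579 and 0.113) in dP1, dP2 and pP. The other tests were read for both after these values were seen. By the likelihood ratio test, also of edgeR, DcMYB7 passed in all 3 sets (FDR 0.0316, 0.00301 and 0.00182) and DcMYB6 in dP2 and pP (FDR 0.000764 and 0.0132). By DESeq2 both passed in dP2 (FDR 0.0183 for DcMYB7 and 0.00177 for DcMYB6) and in pP (FDR 0.0115 and 0.0145). With root as a block both passed in dP1 (FDR 0.00113 and 0.00212) and DcMYB6 in dP2 (FDR 0.0375), and in 1 fit of all 18 libraries DcMYB7 passed in dP1 (FDR 0.0206). DcMYB7 stood at 2.63, 37.0 and 14.9 CPM in the dP1 POP, in the root order of CHS. It stood at 2.41, 2.93 and 2.40 CPM in the dP2 POP and at 2.67, 4.56 and 2.40 CPM in the pP POP. In neither was the root order that of CHS. DcbHLH3, of the family of MYB partners, rose in all 3 sets, by 5.71 in dP1 (FDR 0.0115), 6.13 in dP2 (FDR 0.00278) and 3.18 in pP (FDR 0.0350). In all, 5 of 7 regulators tested were called higher in dP1, 4 of 8 in dP2 and 3 of 7 in pP. The study had picked most of them on the same libraries. The shares called higher over all genes were 11.5%, 8.22% and 4.89%. With CHS, the deviations of DcMYB7, DcMYB6 and DcbHLH3 gave correlations of 0.95, 0.90 and 0.93, and with RIPAP F3H they gave 0.08, 0.17 and 0.06. The 5 other regulators gave −0.40 to 0.19 with CHS and −0.38 to 0.58 with RIPAP F3H, the highest being the MADS-box gene DCAR_010757. All these correlations include the 3 dP1 POP libraries and are descriptions with no test. Values without those libraries are not given here.

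The genes with the 2 identifiers before and after each member were read as neighbours in the annotation, 20 in all. In the tissue comparison, 3 of 15 tested were called higher and 1 lower in dP1, and 4 higher and 1 lower in dP2. In pP 1 was called lower. Over all genes, 11.5%, 8.22% and 4.89% were called higher in dP1, dP2 and pP, and 7.41%, 3.66% and 1.35% lower. Next to F3H, the sucrose invertase DCAR_009482 had 13.6 to 19.5 CPM in the dP2 POP and 0.448 to 1.14 CPM in the dP2 NPIP. It rose there by 4.54 (FDR 0.00462) and was not called in dP1 (−0.49, FDR 0.486) or pP (0.47, FDR 0.451), and the interaction passed for dP2 against dP1 (5.05, FDR 0.00156) and against pP (4.08, FDR 0.00788). Next to RIPAP F3H, the YLS9-like gene DCAR_010573 at chr3:25723695-25724321 fell in the POP of dP1 (−2.69, FDR 0.00636) and pP (−2.05, FDR 0.0245), and was at −2.01 in dP2 (FDR 0.0546). Both had patterns that differ from that of the member beside them: DCAR_010573 was called in no comparison between sets, whereas RIPAP F3H was called in 4.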

How the data were processed

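The authors cleaned single-end reads with Trimmomatic 0.32 and quantified the annotated carrot genes with RSEM on Bowtie2 alignments. The values the authors deposited are RSEM expected counts and TPM, which take effective length into account. RSEM splits reads that match more than 1 gene, and strand was not stated. Expected counts were rounded, genes that reached 1 CPM in fewer than 3 libraries were dropped, and TMM scaling was applied. Groups were compared with the quasi-likelihood F test (edgeR 4.0.16 under R 4.3.3), called at a Benjamini-Hochberg FDR under 0.05 over all genes tested. Tissues were compared on the 6 libraries of 1 set (17452 genes for dP1, 18725 for dP2, 17616 for pP), and sets and interactions in a joint fit of 18 libraries (20253 genes). An SE is the log2 fold change over the root of F. Scripts were tested on simulated data. Levels are CPM on TMM factors of all 18 libraries.

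By the study's account both tissues came from each root, so numbers pair the libraries. Same-numbered libraries gave correlations of deviations from 0.343 to 0.438 in dP1 and from 0.315 to 0.537 in dP2, but −0.233, 0.573 and −0.094 for pP numbers 1 to 3. The main fit had no block, so p-values measure the spread between libraries within groups. Both libraries of a root were treated as independent, within sets and in the joint fit of 18 libraries. Alternatives were DESeq2 1.42.0, the likelihood ratio test of edgeR, other scaling, no filter, root as a block, other fits and each library left out. The members, lists and naming rule (the members, the study's pathway and regulator genes, actin, 2 neighbours on each side and the 3 most alike genes) were chosen with earlier results of these data known. FPKM were not used.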

Additional observations from a re-analysis of the deposited data

Results flagged for a closer look

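None of the 5 genes was called different between sets in its tissue effect by the interaction test, a result that the study's choice of genes partly built in. Beside them, 12 structural and transport genes, 8 regulators and 16 neighbours were tested, and 3 of these were called, in each case with dP2. Over all genes, 0.751% were called higher and 0.356% lower for dP2 against pP, and 1.17% and 1.25% for dP2 against dP1. The sucrose invertase DCAR_009482, next to F3H, had a tissue effect larger in dP2 by 5.05 on the log2 scale than in dP1 (FDR 0.00156 from edgeR) and by 4.08 than in pP (FDR 0.00788). The gene before RIPAP F3H in the annotation, DCAR_010571, differed by 2.74 between dP2 and pP (FDR 0.0295), with log2 fold changes of POP over NPIP of 2.56 in dP2 (FDR 0.0144), 0.89 in dP1 (FDR 0.0451) and −0.17 in pP (FDR 0.848). Its NPIP libraries held 49.2 to 125 CPM in dP2, 163 to 297 CPM in dP1 and 195 to 467 CPM in pP. The MADS-box gene DCAR_010757, of the regulators that the study named, differed by 2.92 between dP2 and pP (FDR 0.0261), at 4.59 in dP2 (FDR 0.00316) and 1.67 in pP (FDR 0.0680), with 12 reads in the 3 dP2 NPIP libraries together. No group had more than 3 libraries, so single libraries were not tested as outliers. Since dP2 came from another family and field, these cannot be told apart from the set.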

How the results depend on the processing

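Of 780 values of single genes under alternatives, 695 kept their direction and their side of the threshold, 42 calls were lost, 21 were gained and 22 values that had not been called changed sign. With root as a replicate block, CHS in dP1 (4.86) and F3H in pP (6.26) were gained among the comparisons of tissues and no other call changed, and the uncalled differences between sets moved to −0.10 for CHS (dP1 against pP) and 0.10 for F3'H (dP2 against dP1). In pP, 5 members instead of 3 were called by the likelihood ratio test, by DESeq2, in 1 fit of all 18 libraries and with NPIP numbers 1 and 3 exchanged in the block, and in the POP of dP1 against pP 2 instead of 1 were called by the likelihood ratio test and by DESeq2. In fits of the 6 libraries of the 2 groups alone, 1 member instead of 2 was called for the POP of dP2 against dP1, 0 instead of 1 for the NPIP of dP1 against pP, and 1 instead of 0 for the NPIP of dP2 against pP. Such a fit has fewer libraries behind its spread.

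With 1 library left out, the members called ranged from 0 to 4 in dP1, 3 to 5 in dP2 and 0 to 3 in pP for POP against NPIP. They ranged from 0 to 1 for the POP of dP1 against pP, 1 to 3 for the POP of dP2 against dP1, 0 to 1 for the NPIP of dP1 against pP, 0 to 1 for the NPIP of dP2 against pP and 1 to 3 for the NPIP of dP2 against dP1. Uncalled log2 fold changes that changed sign without 1 library ranged from −1.32 to 0.47 for F3H (POP, dP2 against dP1), −0.74 to 0.17 for RIPAP F3H and −0.26 to 0.39 for F3'H (POP, dP2 against pP), −0.18 to 2.99 for CHI (NPIP, dP1 against pP), and −1.67 to 0.14 for CHI and −1.44 to 2.39 for F3H (NPIP, dP2 against pP). For differences of the tissue effect they ranged from −1.37 to 1.86 for CHS, −0.53 to 3.32 for CHI and −2.03 to 2.49 for F3H (dP1 against pP), −0.082 to 4.42 for F3H (dP2 against pP), and −1.27 to 2.58 for CHI, −0.72 to 0.054 for RIPAP F3H and −0.95 to 0.55 for F3'H (dP2 against dP1). The cause was not tested, though each such fit has fewer samples.

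Over all genes, the POP-against-NPIP calls were 2225 in dP2, against 3461 by the likelihood ratio test, 3895 by DESeq2 and 3400 with root as a block. In pP they were 1098, against 2121, 2348, 2040 in 1 fit of all 18 libraries and 3137 with NPIP numbers 1 and 3 exchanged in the block. The likelihood ratio test and DESeq2 gave 737 and 887 instead of 270 for dP1 against pP in the POP, and 1691 and 2019 instead of 925 in the NPIP, where fits of the 6 libraries gave 32 and 197. They gave 26 and 32 instead of 3, 706 and 800 instead of 224, and 1169 and 1401 instead of 490 for the interactions of dP1 against pP, dP2 against pP and dP2 against dP1, and the first was 0 with root as a block. With 1 library left out the ranges were 1534 to 4340 (dP1, 3293), 522 to 3062 (dP2) and 219 to 998 (pP) between tissues, 82 to 218 and 234 to 710 for dP1 against pP in the POP and the NPIP, and 0 to 6, 54 to 278 and 73 to 956 for the interactions.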
